A study of Mus musculus with 20 samples.

Results

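The genes of the cell cycle and of proliferation were followed in liver RNA of a giant mouse line. They are 41 genes listed by symbol, each matched to 1 of the 55573 gene IDs of the count files, and 36 of them had enough reads to be tested beside the other genes of a total of 13783. The livers came from 20 male mice, 5 in each of 4 groups. Titan mice, also called DU6, were bred over many generations for high body mass, and control mice came from the unselected line FZTDU that shares their founders. Both lines are non-inbred, both ate a standard breeding diet without restriction, and livers were taken at 11 weeks or at 19–21 weeks of age. The labels name no deleted gene and no agent for any group. Since there is 1 selected and 1 unselected line, selection, drift and the breeding history of each line cannot be told apart in a line difference. The comparisons ask whether genes that carry cells into and through division differ between a line that grows to a giant size and its controls, and whether they differ between the ages.

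A dividing cell passes from growth (G1) into DNA synthesis (S), then through another gap (G2) into mitosis (M). D-type cyclins bind the kinases CDK4 and CDK6 and phosphorylate the retinoblastoma proteins, which frees E2F factors to switch on S-phase genes, while inhibitors such as p21 and p27 hold the kinases back. In the adult liver nearly all hepatocytes rest outside the cycle, but they can return to it when the organ has to grow, and many become polyploid as the mouse matures because cytokinesis fails. E2F7 and E2F8 are repressors known to promote that ploidy, and E2F1 works against them.

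Values are given as CPM, that is reads on the gene's own strand in each 1000000 gene reads, with library totals scaled by TMM. Reads on genes ranged from 6794935 to 23295028 per mouse with a median of 12547300. They were lowest in Titan mice of 19–21 weeks, at 6794935 to 11464698. Log2 fold changes are Titan over control unless ages are compared, each with its standard error (SE), and adjusted p values are those of edgeR's two-sided quasi-likelihood F test, corrected by Benjamini–Hochberg for the 13783 genes tested, with 0.05 as the threshold. The 8 hepatocyte markers, among them Alb and Ttr, summed to 69684 to 104888 CPM, and each had reads in every mouse. Markers of other cells were present at far lower sums, with Kupffer cell markers at 69.2 to 227 CPM, endothelial markers at 239 to 332 CPM, stellate cell markers at 258 to 435 CPM and leukocyte markers at 11.3 to 33.8 CPM. In whole liver, fewer cells of a type and less RNA per cell cannot be told apart. The titles number the mice and nothing in the labels ties them to a litter or a sequencing pool, so a p value here measures the spread between these 5 mice a group.

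Levels are compared between genes per kilobase of exon. On that scale the highest mean over the 20 livers was that of Gadd45g, at 13.6 CPM per kb, followed by Cdk4 at 7.38, Cdkn1b at 6.58, Cdkn1a at 4.58 and Pcna at 4.55. The 3 D-type cyclins lay between 2.63 and 3.84 CPM per kb, whereas cyclin A2 (Ccna2) reached 0.257 and cyclin B1 (Ccnb1) 0.0289, the lowest of the 41. Cyclins E1 and E2 stood at 0.390 and 0.449 CPM per kb, about as low as the mitosis gene Mki67 at 0.462. The 5 genes below the limit of testing were all needed for mitosis. They are Ccnb1 with 36 reads over all mice, Birc5 with 151, Bub1 with 65, Aurkb with 87 and Plk1 with 83. Of these, Ccnb1 had no read in 9 mice, Aurkb in 4 and Bub1 in 3, and a count of 0 allows up to 3 reads. The most reads in any mouse were 15 for Ccnb1, 24 for Birc5, 13 for Bub1, 16 for Aurkb and 15 for Plk1, and all 5 counts came from Titan replicate 5 of 11 weeks, which also had the most reads on genes.

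**Figure D1:**
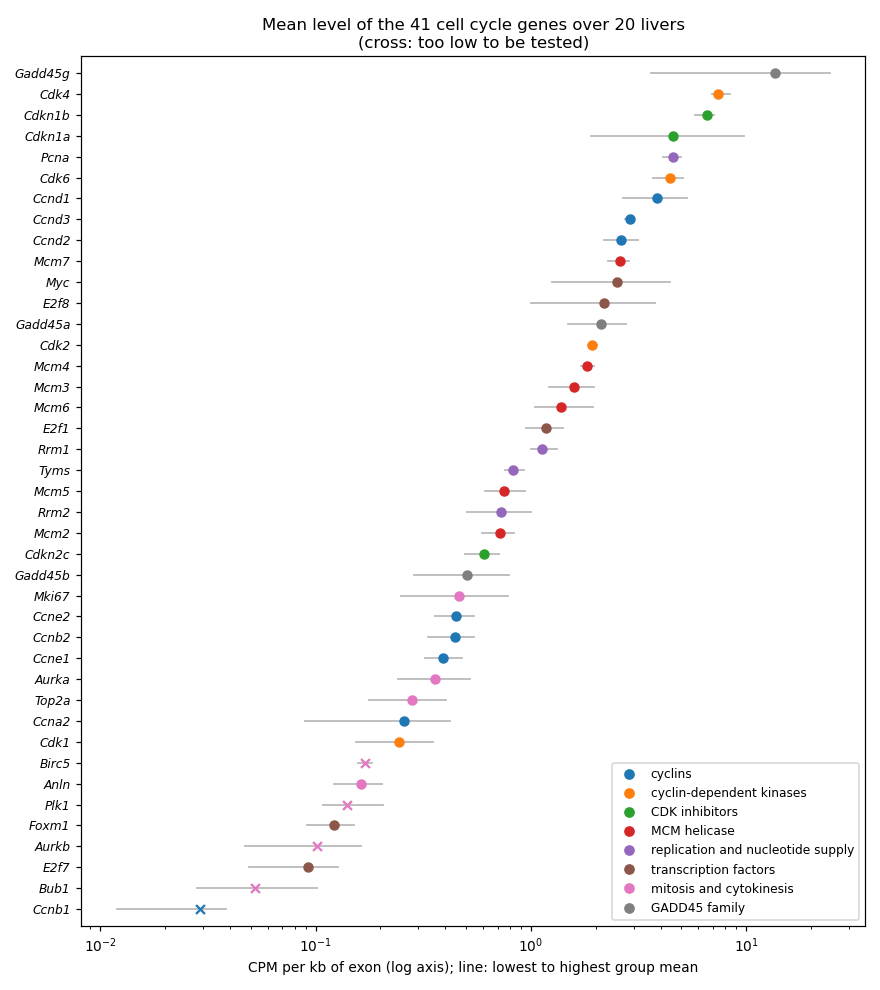
Mean CPM per kilobase of exon (horizontal log axis) of the 41 genes over 20 livers, with a line from the lowest to the highest of the 4 group means, coloured by role. Gadd45g stands highest at 13.6 and Ccnb1 lowest at 0.0289, and the 5 crosses are the mitosis genes too low to be tested.

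At each age the line comparisons called members at close to the share of all tested genes. They called 13.9% of the 36 at 11 weeks and 8.33% at 19–21 weeks. At 11 weeks, 1 member was higher in Titan mice (Cdkn1a) and 4 were lower (Ccnd2, Cdk4, E2f7 and Myc) among the 36 tested (edgeR's quasi-likelihood test), where 7.23% of all tested genes were higher and 7.69% lower. At 19–21 weeks 2 members were higher (Ccna2 and E2f8) and 1 was lower (Gadd45g), against 4.24% and 4.88% of all tested genes. With both ages averaged, 7 members were higher and 6 lower, against backgrounds of 11.5% and 12.5%. The higher ones were Ccna2, Ccnd1, Cdkn1a, E2f1, E2f8, Mki67 and Gadd45b, and the lower ones Ccnd2, Cdk6, E2f7, Myc, Gadd45a and Gadd45g. These 13 are 36.1% of the tested members, where 24% of all tested genes were called. No member was called at both ages. The log2 fold changes of 30 of the 36 had the same sign at both, and both comparisons came from the same fit. The share of all tested genes with the same sign was not counted, so the 30 cannot be set against it. The median log2 fold change of the members was -0.08 at 11 weeks and 0.05 at 19–21 weeks, and that of all tested genes was -0.02 and 0.01. The CPM of the lines did not overlap for 4 members at 11 weeks (Cdk4, Cdkn1a, Cdkn1b and E2f7) and for 3 at 19–21 weeks (Ccna2, E2f8 and Gadd45b), where 11.9% and 7.63% of all tested genes did not overlap.

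Single mice moved these counts. At 11 weeks the number of members lower in Titan mice was 7 without control replicate 1, 2 without control replicate 3 or 4, and 1 without Titan replicate 1, 2 or 3. The number higher was 3 without control replicate 5 and 2 without Titan replicate 1 or 3 of that age or Titan replicate 1 of 19–21 weeks. In the later comparison the number higher was 1 without control replicate 3 or Titan replicate 1 or 3. The number lower was 0 without control replicate 1, 3, 4 or 5, Titan replicate 1, 3 or 4 or Titan replicate 2 of 11 weeks, and 2 without Titan replicate 4 of 11 weeks. Over both ages the counts ran from 5 to 8 higher and from 5 to 9 lower with each mouse left out.

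**Figure D2:**
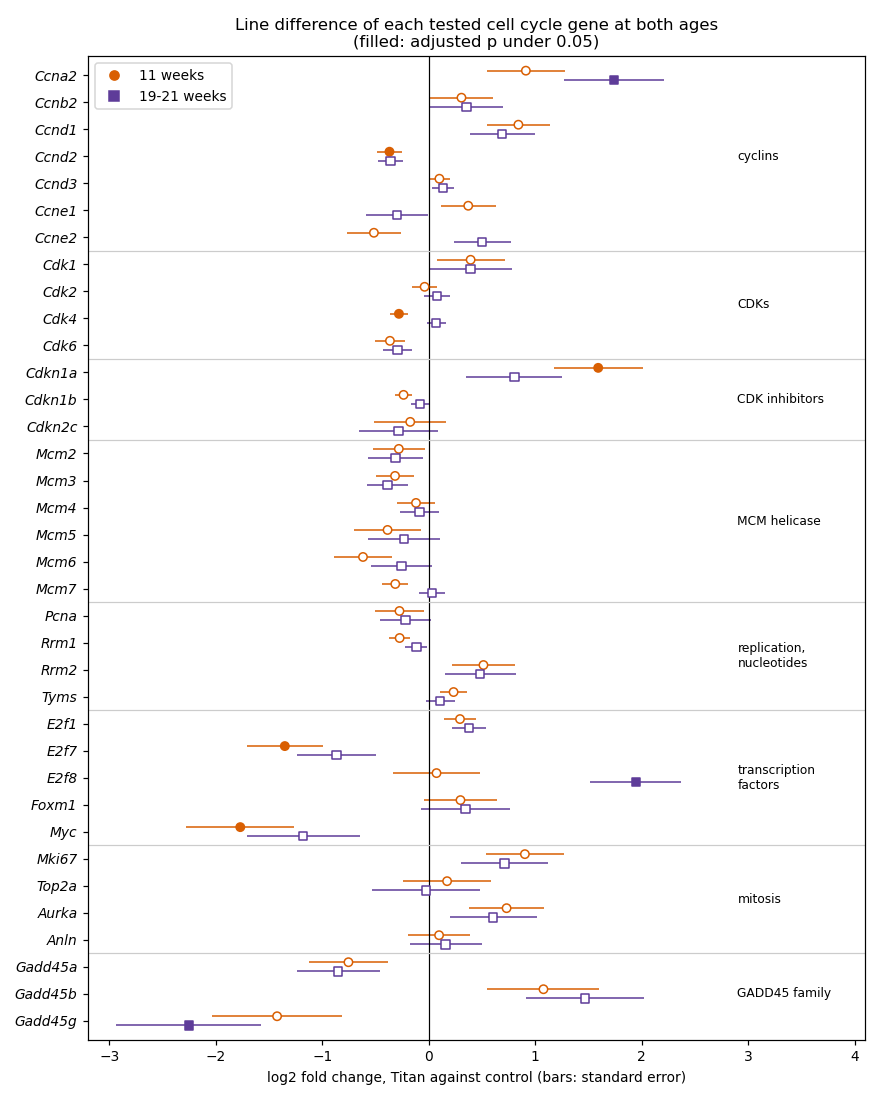
Log2 fold change of Titan over control mice with its standard error (horizontal axis) for the 36 tested genes at 11 weeks (circles) and at 19–21 weeks (squares), grouped by role. Filled marks passed an adjusted p of 0.05, and no gene has a filled mark at both ages.

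Cyclin A2 was higher and cyclin D2 lower in Titan livers. Ccna2 (ENSMUSG00000027715, chr3:36564865-36572150, minus strand) encodes the cyclin that drives S phase and entry into mitosis. At 19–21 weeks its CPM was 0.343, 0.451, 0.0540, 0.395 and 0.587 in control replicates 1 to 5 and 1.77, 0.684, 1.70, 1.01 and 0.850 in Titan mice. Every Titan mouse lay above every control, on 4, 5, 1, 3 and 7 reads in controls and 13, 7, 14, 12 and 10 in Titan mice. The log2 fold change was 1.74 ± 0.47 (SE), a 3.35-fold difference (adjusted p = 0.0235). At 11 weeks the CPM was 0.337, 0.750, 1.09, 1.34 and 0.966 in controls and 1.10, 1.88, 1.09, 2.08 and 2.48 in Titan mice. The groups overlapped there, with a log2 fold change of 0.91 ± 0.36 (adjusted p = 0.101). Over both ages Ccna2 rose by 1.33 ± 0.30 on the log2 scale (adjusted p = 0.00258). Ccna2 overlaps Exosc9 on the other strand, and with counts over both strands the value at 19–21 weeks was 1.10 (adjusted p = 0.0525). The call at that age was also lost without control replicate 3 (1.36, adjusted p = 0.0602), Titan replicate 1 (1.58, 0.0551) or Titan replicate 3 (1.58, 0.0619).

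Ccnd1 (ENSMUSG00000070348, chr7:144929931-144939925, minus strand), the D-type cyclin that responds to growth signals in hepatocytes, passed the test over both ages only. Its CPM at 11 weeks was 13.8, 11.4, 11.0, 16.5 and 16.9 in controls and 20.8, 36.2, 14.2, 24.6 and 29.0 in Titan mice. In the older mice it was 9.52, 7.40, 17.8, 11.6 and 16.8 in controls and 38.6, 13, 15.7, 12.8 and 23.6 in Titan mice. All but 1 of the 11-week-old Titan mice lay above all controls of that age, while the older groups overlapped widely. Its locus overlaps LTO1 on the other strand, whose reads these counts leave out. Ccnd1 rose by 0.77 ± 0.21 on the log2 scale over both ages (adjusted p = 0.0118), with 0.84 ± 0.30 at 11 weeks (adjusted p = 0.0612) and 0.69 ± 0.30 at 19–21 weeks (adjusted p = 0.166).

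Ccnd2 (ENSMUSG00000000184, chr6:127125162-127152193, minus strand), another D-type cyclin, went the other way. At 11 weeks its CPM was 28.5, 26.2, 32.0, 29.4 and 30.9 in controls and 17.98, 22.0, 22.3, 31.0 and 21.3 in Titan mice, so that 4 of 5 Titan mice lay below all controls and Titan replicate 4 lay among the highest. In the older groups it was 23.6, 25.2, 29.0, 27.4 and 25.8 in controls and 22.3, 19.1, 18.2, 17.96 and 24.7 in Titan mice, which overlapped through 1 Titan mouse. It fell over both ages (log2 fold change -0.36 ± 0.08, adjusted p = 0.00325) and at 11 weeks (-0.37 ± 0.12, adjusted p = 0.0378), and at 19–21 weeks the value was -0.36 ± 0.12 (adjusted p = 0.0670). The call at 11 weeks was lost under 4 other settings (adjusted p 0.052 to 0.0751) and without any 1 of 8 mice, which are control replicates 1, 3, 4 and 5 and Titan replicates 1, 2, 3 and 5 (adjusted p 0.0515 to 0.112), whereas that over both ages held under every alternative run. The 4 other tested cyclins passed no line comparison. Ccnd3 stood at 24.4 ± 1.44 (SD, n = 5) CPM in controls and 26.2 ± 2.99 in Titan mice at 11 weeks (adjusted p = 0.576). Cyclins E1 and E2, which start DNA synthesis with CDK2, had line differences of opposite sign at the 2 ages. For Ccne1 they were 0.37 ± 0.26 and -0.30 ± 0.29, for Ccne2 -0.52 ± 0.25 and 0.50 ± 0.27, and the change of the Ccne2 difference with age had an unadjusted p of 0.0117 and an adjusted p of 0.387. Cyclin B2 (Ccnb2), a mitotic cyclin, reached at most 1.22 CPM in a mouse and had 0.33 ± 0.23 over both ages (adjusted p = 0.314).

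**Figure D3:**
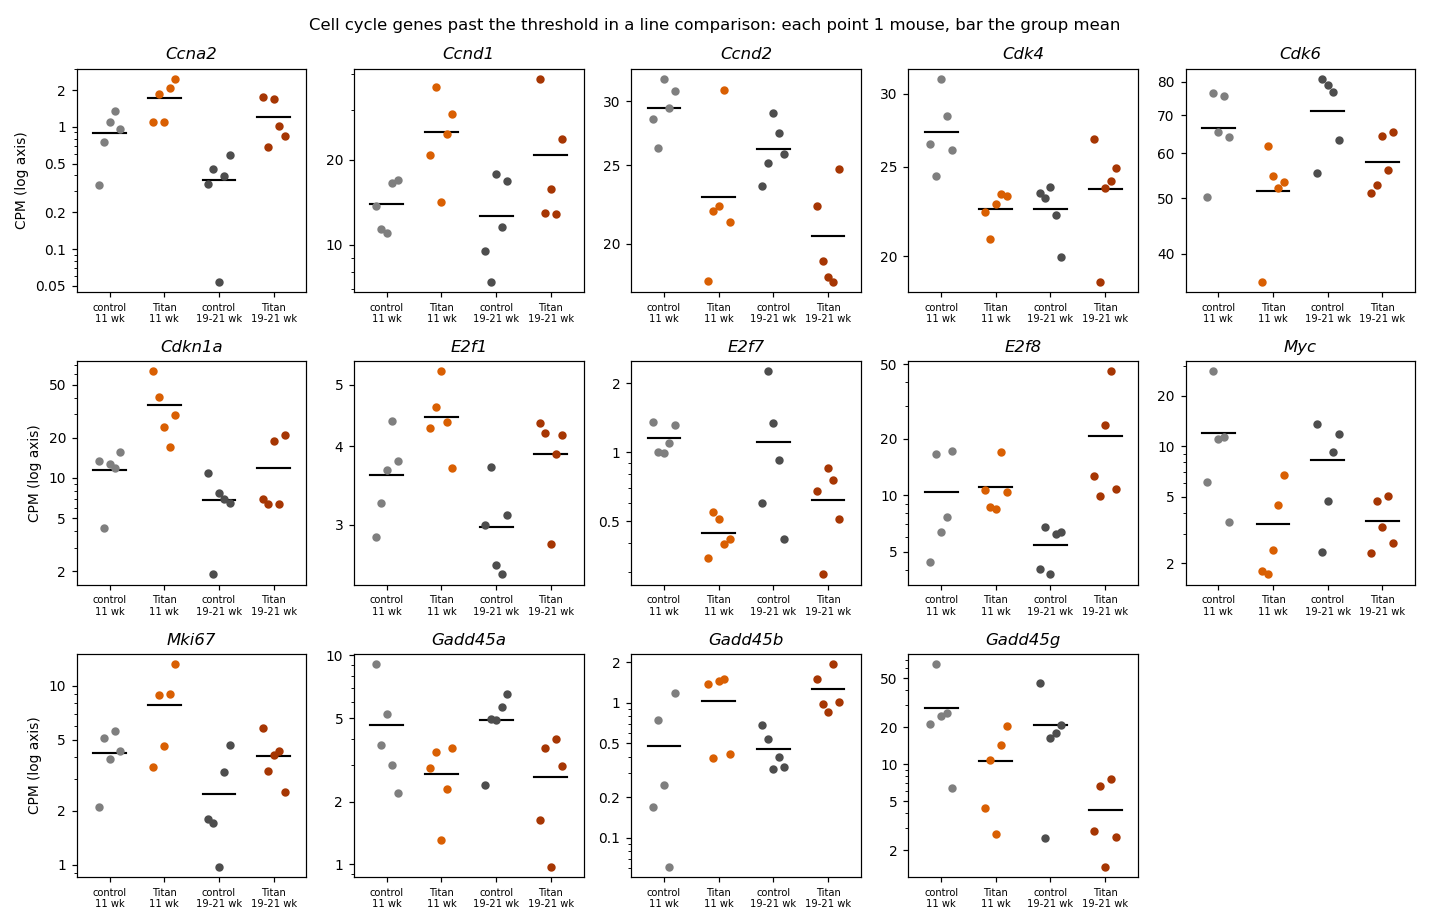
CPM of each mouse (vertical log axis, 1 point a mouse, bar the group mean of 5) in the 4 groups for the 14 genes past the threshold in a line comparison. The lines do not overlap for E2f7, Cdk4 and Cdkn1a at 11 weeks and for Ccna2, E2f8 and Gadd45b at 19–21 weeks.

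Of the cyclin-dependent kinases, Cdk4 was lower in Titan mice at 11 weeks and Cdk6 over both ages. Cdk4 (ENSMUSG00000006728, chr10:127063534-127067920, plus strand) was read at 26.5, 24.4, 31.2, 28.4 and 26.1 CPM in 11-week-old controls and at 22.3, 20.9, 22.8, 23.3 and 23.2 CPM in Titan mice of that age. All Titan mice lay below all controls, but the difference was small, with a log2 fold change of -0.28 ± 0.09 (adjusted p = 0.0318). At 19–21 weeks the CPM was 23.4, 23.1, 23.8, 22.1 and 19.97 in controls and 26.8, 18.8, 23.7, 24.1 and 24.9 in Titan mice, which overlapped (log2 fold change 0.07 ± 0.09, adjusted p = 0.672). The call at 11 weeks was lost with no filter on low counts (-0.27, adjusted p = 0.109) and without control replicate 3 or 4 or Titan replicate 1, 2, 3 or 5, where the adjusted p was 0.0504 to 0.0977.

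Cdk6 (ENSMUSG00000040274, chr5:3341485-3531008, plus strand) encodes, like Cdk4, a kinase that D-type cyclins bind. It had 50.2, 76.5, 65.4, 75.7 and 64.0 CPM in controls and 35.7, 61.9, 54.8, 52.0 and 53.5 CPM in Titan mice at 11 weeks. In older mice the values were 55.4, 81.1, 79.1, 76.8 and 63.3 in controls and 51.1, 52.8, 64.4, 56.2 and 65.4 in Titan mice. The groups overlapped at both ages, with Titan replicate 1 of 11 weeks the lowest of all mice. Cdk6 fell by 0.33 on the log2 scale over both ages (SE 0.10, adjusted p = 0.0189) and did not pass at either age alone (adjusted p = 0.0860 and 0.202). Cdk2, the kinase of S phase, stood at 11.8 ± 0.805 (SD, n = 5) CPM in controls and 11.4 ± 2.07 in Titan mice at 11 weeks, and at 12.0 ± 0.578 and 12.6 ± 1.99 at 19–21 weeks. The 95% interval of its line difference over both ages, 0.02 on the log2 scale, ran from -0.15 to 0.18. Cdk1, the kinase of mitosis, was read at 0.510 to 2.61 CPM and its line difference over both ages was 0.39 ± 0.25 (adjusted p = 0.276).

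The promoter window of Cdk1, 250 bases before to 50 after the start in RefSeq (GRCm38.p6), is shown because it holds all 3 kinds of motif searched for in the members. These were the E2F words TTTGGCGC and TTTCGCGC, the CHR word TTTGAA and the word CCAAT, each on both strands, and matches are in capitals here and in the other windows below.
Cdk1 (chr10:69352863-69353162, minus strand): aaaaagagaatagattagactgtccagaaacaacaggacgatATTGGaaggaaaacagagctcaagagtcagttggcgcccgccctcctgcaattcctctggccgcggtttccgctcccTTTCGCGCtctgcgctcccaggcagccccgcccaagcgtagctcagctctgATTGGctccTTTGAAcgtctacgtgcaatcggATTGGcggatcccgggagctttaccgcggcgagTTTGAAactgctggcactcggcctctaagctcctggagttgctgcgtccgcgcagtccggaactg
Its E2F word begins at -131 from the start, its CHR words at -71 and -15, and its CCAAT words, all on the reverse strand, at -208, -80 and -48, with no overlap between them. Of the 41 members, 33 have a window in the table. The other 8 are Ccna2, Ccnd1, Ccnd2, Ccne2, Mcm4, Foxm1, Myc and Aurkb. An E2F word stood in 5 of the 33 (15.2%) and in 0.813% of all 32851 windows, a CHR word in 9 (27.3%) and in 17.9% of all, and a CCAAT word in 25 (75.8%) and in 37.4% of all. A member counted if any of its windows held the word, and the 33 had 37 windows. The share of all is per window. A match of letters is a description and not a binding site.

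The CDK inhibitor p21 was the single member called higher in Titan mice at 11 weeks. Cdkn1a (ENSMUSG00000023067, chr17:29090976-29100727, plus strand), which encodes p21 and is known as a target of p53, had 13.3, 4.25, 12.7, 11.8 and 15.6 CPM in controls and 62.8, 40.6, 24.2, 17.1 and 29.6 CPM in Titan mice at that age. Every Titan mouse lay above every control and Titan replicate 1 was the highest of all 20 mice. The log2 fold change was 1.59 ± 0.42, or 3.01-fold (adjusted p = 0.0121), and it passed the threshold under all 29 alternatives. At 19–21 weeks the CPM was 10.8, 1.90, 7.72, 6.98 and 6.54 in controls and 6.93, 6.35, 19.0, 6.41 and 20.8 in Titan mice. Only Titan replicates 3 and 5 lay above the controls there, and the log2 fold change of 0.80 ± 0.45 had an adjusted p of 0.286. Over both ages Cdkn1a rose by 1.198 ± 0.31 on the log2 scale (adjusted p = 0.00697). Cdkn1b, which encodes p27, was lower in all Titan mice than in all controls at 11 weeks, at 32.6, 32.6, 31.0, 29.7 and 29.8 CPM in controls and 23.8, 23.6, 27.8, 27.3 and 29.4 in Titan mice, but its log2 fold change of -0.24 ± 0.08 did not pass (adjusted p = 0.0565). Over both ages its value was -0.16 ± 0.06 with an adjusted p of 0.05002, just over the threshold. Cdkn2c, which encodes the CDK4 and CDK6 inhibitor p18, was read at 0.600 to 3.17 CPM with adjusted p values of 0.799 and 0.686.

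The 6 subunits of the MCM helicase, which opens DNA at replication origins, had mostly negative line differences. None passed the test, where 24% of all tested genes were called over both ages. At 11 weeks all 6 had log2 fold changes below 0, with a median of -0.32, and at 19–21 weeks 5 of 6 did, with a median of -0.24. The lowest adjusted p was 0.0869 at 11 weeks (Mcm7, -0.31 ± 0.12), 0.226 at 19–21 weeks (Mcm3, -0.39 ± 0.19) and 0.0581 over both ages (Mcm3, -0.35 ± 0.13). Mcm6 had the largest log2 difference of the 6 at 11 weeks, -0.62 ± 0.27 (adjusted p = 0.138), at 4.05, 7.16, 8.72, 16.4 and 8.76 CPM in controls and 3.93, 6.41, 4.52, 7.74 and 7.02 in Titan mice. Control replicate 4 held the highest value of this group, and the lines overlapped. Mcm2, Mcm4 and Mcm5 had adjusted p values between 0.246 and 0.815 in the 3 line comparisons. The window of Mcm6 is shown as one of the 5 with an E2F word, beside Mcm3, Mcm5, Mcm7 and Cdk1.
Mcm6 (chr1:128359656-128359955, minus strand): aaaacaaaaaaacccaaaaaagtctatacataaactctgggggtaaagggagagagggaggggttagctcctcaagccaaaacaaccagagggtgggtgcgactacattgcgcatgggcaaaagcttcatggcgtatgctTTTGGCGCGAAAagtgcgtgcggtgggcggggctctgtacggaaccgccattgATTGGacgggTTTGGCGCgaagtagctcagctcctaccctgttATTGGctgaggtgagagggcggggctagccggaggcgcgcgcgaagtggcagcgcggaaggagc
Its E2F words begin at -110, at -106 on the reverse strand and at -47, the first pair overlapping, and its reverse CCAAT words at -57 and -14.

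None of the 4 tested members of the replication fork and of nucleotide supply passed a test in any comparison. Over both ages 24% of all tested genes were called, and 4 genes are too few to set against that share. Pcna, the sliding clamp of DNA polymerase, stood at 11.9 ± 2.498 (SD, n = 5) CPM in controls and 9.85 ± 3.03 in Titan mice at 11 weeks and at 11.7 ± 3.87 and 10.2 ± 1.66 at 19–21 weeks. Rrm1, the large subunit of ribonucleotide reductase, had a line difference of -0.27 ± 0.10 at 11 weeks and -0.19 ± 0.07 over both ages (adjusted p = 0.0713 and 0.0541). Its partner subunit Rrm2, which is made in S phase, had values of the other sign, 0.51 ± 0.30 at 11 weeks and 0.50 ± 0.22 over both ages (adjusted p = 0.285 and 0.115). Tyms, thymidylate synthase, was at 4.79 ± 0.704 CPM in controls and 5.66 ± 0.587 in Titan mice at 11 weeks (adjusted p = 0.262). Rrm1 overlaps Gm45399 on its own strand, so their reads cannot be told apart there.

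Among the transcription factors, the repressor genes E2f7 and E2f8 passed the test in opposite directions over both ages. E2f7 (ENSMUSG00000020185, chr10:110745439-110787384, plus strand) was read at 1.35, 0.9996, 0.990, 1.10 and 1.31 CPM in 11-week-old controls and at 0.345, 0.547, 0.511, 0.397 and 0.420 CPM in Titan mice, on 16, 12, 20, 18 and 19 and on 5, 7, 7, 4 and 10 reads. All Titan mice lay below all controls, with a log2 fold change of -1.35 ± 0.36 (adjusted p = 0.0127). This call held under each of the 28 alternatives that gave a value, with values of -1.43 to -1.27. In the older livers E2f7 was at 0.600, 2.26, 1.35, 0.922 and 0.419 in controls and 0.680, 0.293, 0.851, 0.759 and 0.510 in Titan mice. Control replicates 2 and 3 were high, the groups overlapped and the value was -0.87 ± 0.37 (adjusted p = 0.154). E2f7 fell over both ages (-1.11 ± 0.26, adjusted p = 0.00338).

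E2f8 (ENSMUSG00000046179, chr7:48866429-48881596, minus strand) did not differ at 11 weeks beyond the spread, at 4.39, 16.7, 6.39, 7.62 and 17.2 CPM in controls and 10.6, 8.60, 8.39, 17.1 and 10.4 CPM in Titan mice (log2 fold change 0.07 ± 0.40, adjusted p = 0.940). In mice of 19–21 weeks E2f8 was at 4.03, 6.77, 3.78, 6.19 and 6.38 CPM in controls and at 12.6, 9.87, 23.7, 45.8 and 10.8 CPM in Titan mice. All Titan mice lay above all controls, and Titan replicate 4 held the highest value of all 20 mice. The difference was 3.85-fold, 1.95 ± 0.43 on the log2 scale (adjusted p = 0.00662), and it stayed past the threshold with each mouse left out. Gm2788 lies on the other strand at this locus. Counts over both strands held 6653 reads at E2f8 in place of the 2927 on its own strand, so they include reads of the other strand. They gave 1.08 at 19–21 weeks (adjusted p = 0.0789) and 0.32 over both ages (adjusted p = 0.414). The strand counts gave 1.01 ± 0.29 over both ages (adjusted p = 0.0161). The windows of both repressors are shown because they passed the test in opposite directions.
E2f7 (chr10:110745189-110745488, plus strand): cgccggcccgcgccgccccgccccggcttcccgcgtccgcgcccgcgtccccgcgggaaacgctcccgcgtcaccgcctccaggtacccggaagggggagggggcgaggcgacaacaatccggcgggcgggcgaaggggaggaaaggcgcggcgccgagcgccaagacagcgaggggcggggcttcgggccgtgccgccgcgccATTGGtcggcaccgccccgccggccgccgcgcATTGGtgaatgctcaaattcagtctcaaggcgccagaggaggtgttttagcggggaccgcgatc
E2f8 (chr7:48881547-48881846, minus strand): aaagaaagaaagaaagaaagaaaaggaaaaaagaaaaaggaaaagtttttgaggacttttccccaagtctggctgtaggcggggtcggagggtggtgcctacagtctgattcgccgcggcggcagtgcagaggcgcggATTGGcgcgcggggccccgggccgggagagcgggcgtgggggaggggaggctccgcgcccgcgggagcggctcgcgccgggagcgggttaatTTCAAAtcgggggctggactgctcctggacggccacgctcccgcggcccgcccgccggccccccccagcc
Neither window holds TTTGGCGC or TTTCGCGC, and other forms of the E2F word were not searched for. The E2f7 window has reverse CCAAT words at -46 and -14, and that of E2f8 has a reverse CCAAT word at -112 and a reverse CHR word at -20.

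E2f1 (ENSMUSG00000027490, chr2:154559407-154569892, minus strand), the activator of S-phase genes, was slightly higher in Titan mice over both ages. Its CPM at 11 weeks was 2.87, 3.25, 3.66, 4.39 and 3.79 in controls and 4.27, 4.61, 5.25, 4.37 and 3.70 in Titan mice. The older mice had 3.002, 3.70, 2.59, 2.504 and 3.10 in controls and 4.35, 4.20, 2.80, 3.88 and 4.16 in Titan mice. The groups overlapped at both ages. E2f1 rose by 0.34 ± 0.11 over both ages on the log2 scale (adjusted p = 0.0297) and did not pass at 11 weeks (0.29 ± 0.15, adjusted p = 0.215) or at 19–21 weeks (0.38 ± 0.16, adjusted p = 0.145). The call was lost with no filter on low counts (0.33, adjusted p = 0.0961), with the replicate number in the model (0.34, 0.0531) and without 11-week control replicate 1 or Titan replicate 3 or 19–21-week control replicate 3 or Titan replicate 5 (0.0506 to 0.0572). Foxm1, which drives genes of G2 and mitosis and overlaps Tex52 on its own strand, was read at 0.270 to 1.34 CPM and had adjusted p values of 0.633 and 0.658.

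Myc (ENSMUSG00000022346, chr15:61985391-61990374, plus strand), the growth factor response gene that feeds ribosome synthesis and G1 progression, was lower in Titan mice at 11 weeks and over both ages. At 11 weeks its CPM was 6.07, 27.9, 11.1, 11.3 and 3.52 in controls and 1.79, 1.72, 2.41, 4.47 and 6.68 in Titan mice. Control replicate 2 was the highest of all 20 mice, and control replicates 1 and 5 lay within the range of the Titan mice. The log2 fold change was -1.77 ± 0.51 (adjusted p = 0.0214), and without control replicate 2 it was -1.21 (adjusted p = 0.0976). The call at 11 weeks was also lost without Titan replicate 1, 2 or 3 (-1.61, -1.61 and -1.66, adjusted p = 0.0591, 0.0604 and 0.0553). In older livers the CPM of Myc was 13.6, 2.35, 4.69, 9.22 and 11.7 in controls and 2.31, 4.69, 3.28, 5.06 and 2.63 in Titan mice, with overlap, and the value of -1.18 ± 0.53 had an adjusted p of 0.177. Over both ages Myc fell (-1.48 ± 0.37, adjusted p = 0.00577), and this call held under every alternative run.

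Of the 4 tested members of mitosis and cytokinesis, Mki67 alone passed, over both ages, where 24% of all tested genes were called. Mki67 (ENSMUSG00000031004, chr7:135689784-135716361, minus strand) encodes Ki-67, the coat protein of mitotic chromosomes that is used as a stain for cycling cells. At 11 weeks its CPM was 2.11, 5.08, 3.91, 5.61 and 4.35 in controls and 3.51, 8.91, 4.60, 9.03 and 13.3 in Titan mice, and Titan replicates 2, 4 and 5 lay above all controls. In the older livers it was 1.80, 1.71, 0.971, 3.29 and 4.70 in controls and 5.84, 3.32, 4.13, 4.30 and 2.55 in Titan mice, with overlap. Mki67 rose over both ages (0.81 ± 0.28, adjusted p = 0.0373), with 0.90 ± 0.36 at 11 weeks and 0.71 ± 0.41 at 19–21 weeks (adjusted p = 0.105 and 0.303). This call was lost without any 1 of 11 mice, at adjusted p values of 0.0545 to 0.0838. These were 11-week control replicates 1 and 3, 11-week Titan replicates 2, 4 and 5, 19–21-week control replicates 1, 2 and 3 and 19–21-week Titan replicates 1, 3 and 4. Aurka, the kinase of the spindle poles, had 0.67 ± 0.27 over both ages (adjusted p = 0.0773). Top2a, which untangles DNA before mitosis, and Anln, which acts in the cleavage furrow, had 0.07 ± 0.33 and 0.13 ± 0.22 (adjusted p = 0.900 and 0.725). The window of Mki67 is shown for its repeated words.
Mki67 (chr7:135716330-135716629, minus strand): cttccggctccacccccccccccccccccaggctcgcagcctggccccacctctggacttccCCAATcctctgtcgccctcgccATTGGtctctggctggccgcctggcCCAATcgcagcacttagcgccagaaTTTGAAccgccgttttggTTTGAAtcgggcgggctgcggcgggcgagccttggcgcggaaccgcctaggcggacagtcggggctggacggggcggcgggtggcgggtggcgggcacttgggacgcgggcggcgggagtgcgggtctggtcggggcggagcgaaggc
It has CHR words at -116 and -98 and CCAAT words at -188, at -166 on the reverse strand and at -141.

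The GADD45 genes encode small stress proteins that bind CDK1 and PCNA and slow the cycle, and the 3 members did not move together. Gadd45g (ENSMUSG00000021453, chr13:51846678-51848468, plus strand) had 21.1, 65.1, 24.4, 25.9 and 6.41 CPM in controls and 4.41, 10.7, 2.70, 14.4 and 20.3 CPM in Titan mice at 11 weeks. The older mice had 45.97, 2.53, 16.3, 18.1 and 20.6 CPM in controls and 2.85, 6.64, 1.46, 7.59 and 2.55 CPM in Titan mice. At the older age 4 of 5 controls lay above all Titan mice, and control replicate 2 lay among the Titan mice. The log2 fold change was -2.25 ± 0.68 at 19–21 weeks (adjusted p = 0.0426), -1.42 ± 0.61 at 11 weeks (adjusted p = 0.130) and -1.84 ± 0.46 over both ages (adjusted p = 0.00577). The call at 19–21 weeks was lost with the replicate number in the model (-2.41, adjusted p = 0.057), with the percent of reads on genes as a covariate (-2.16, 0.0637) and without any 1 of 9 mice (0.05001 to 0.130). Those mice were control replicates 1, 3, 4 and 5 and Titan replicates 1, 3, 4 and 5 of that age and Titan replicate 2 of 11 weeks. The call over both ages held under every alternative run.

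Gadd45a (ENSMUSG00000036390, chr6:67035096-67037457, minus strand), a p53 target, had 9.11, 3.75, 5.25, 2.99 and 2.21 CPM in controls and 2.89, 3.44, 1.31, 2.28 and 3.61 CPM in Titan mice at 11 weeks. Livers of 19–21 weeks had 2.40, 4.96, 4.91, 5.67 and 6.54 CPM in controls and 1.63, 3.62, 0.972, 3.96 and 2.97 CPM in Titan mice. The lines overlapped at both ages. It fell over both ages (-0.80 ± 0.27, adjusted p = 0.0355), and this call was lost without any 1 of 8 mice (0.0526 to 0.0772), namely 11-week control replicates 1 and 3, 11-week Titan replicates 3 and 4, 19–21-week control replicates 4 and 5 and 19–21-week Titan replicates 1 and 3. Gadd45b (ENSMUSG00000015312, chr10:80930073-80932204, plus strand), which is induced in hepatocytes that enter the cycle, was at the low end of detection. Its reads were 2, 9, 5, 1 and 17 in 11-week controls and 20, 5, 20, 15 and 10 in 11-week Titan mice. In the older groups they were 8, 6, 6, 3 and 4 in controls and 11, 10, 7, 23 and 12 in Titan mice. In CPM, the older controls had 0.686, 0.542, 0.324, 0.395 and 0.336 and the older Titan mice 1.495, 0.977, 0.851, 1.94 and 1.02, without overlap, whereas the younger groups, at 0.169, 0.750, 0.248, 0.0610 and 1.17 in controls and 1.38, 0.391, 1.46, 1.49 and 0.420 in Titan mice, overlapped. Gadd45b rose over both ages (1.27 ± 0.38, adjusted p = 0.0190) and did not pass at 11 weeks (adjusted p = 0.190) or at 19–21 weeks (adjusted p = 0.101).

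Between the ages, the members were mostly lower in the older livers, without a call. In controls 31 of the 36 tested members had log2 fold changes of 19–21 over 11 weeks below 0, with a median of -0.29, and in Titan mice 24 did, with a median of -0.20. The medians of all tested genes were 0.00 and 0.02. By the quasi-likelihood F test of edgeR none of the 36 passed in controls, where 0.0871% of all tested genes passed, and none in Titan mice, where 1.25% did. At an unadjusted p under 0.05 there were 8 members in each line, against 6.15% of all tested genes in controls and 15.6% in Titan mice. Of the 8 in Titan mice, E2f8 (0.92 ± 0.40), Ccne2 (0.55 ± 0.26) and Cdkn1b (0.20 ± 0.08) were higher in the older livers. Their adjusted p values were 0.268, 0.320 and 0.250. The rest, Cdkn1a, Ccne1, Cdk1, Mki67 and Top2a, were lower. E2f8 was lower in older controls (-0.96 ± 0.43, adjusted p = 0.793). With DESeq2, none passed in controls (0.363% of all genes) and 1 passed in Titan mice (3.08% of all genes). It was Cdkn1a, with -1.57 (adjusted p = 0.0388). The edgeR value was -1.55 ± 0.42 (adjusted p = 0.0733). Top2a had -1.05 ± 0.46 in controls and -1.25 ± 0.46 in Titan mice (adjusted p = 0.762 and 0.190), and Mki67 -0.80 ± 0.40 and -0.99 ± 0.38 (adjusted p = 0.821 and 0.205). Cdk1 had -0.83 ± 0.36 in controls and -0.84 ± 0.35 in Titan mice (adjusted p = 0.755 and 0.248). Ccna2 had -1.40 ± 0.46 in controls and -0.57 ± 0.38 in Titan mice (adjusted p = 0.549 and 0.490). For Rrm1 and Cdk4 all older controls lay below all younger ones, where the ages did not overlap in controls for 1.02% of all tested genes, and neither passed (adjusted p = 0.562 and 0.482).

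Whether the line difference itself changed with age was tested as an interaction. No member passed by the quasi-likelihood F test of edgeR (0.00726% of all tested genes did) or with DESeq2 (0.631% did), and 3 members had an unadjusted p under 0.05, where 8.92% of all tested genes had. These were E2f8 with 1.87 ± 0.59 (adjusted p = 0.290), Ccne2 with 1.02 ± 0.37 (adjusted p = 0.387) and Cdk4 with 0.35 ± 0.12 (adjusted p = 0.376). For the other members called at a single age the difference was 0.83 ± 0.60 for Ccna2, -0.79 ± 0.61 for Cdkn1a, 0.49 ± 0.52 for E2f7, 0.59 ± 0.73 for Myc, 0.01 ± 0.17 for Ccnd2 and -0.83 ± 0.91 for Gadd45g, with adjusted p values of 0.740, 0.764, 0.850, 0.881, 0.996 and 0.858. A call at 1 age and not at the other is thus not shown to be a difference between the ages.

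**Figure D4:**
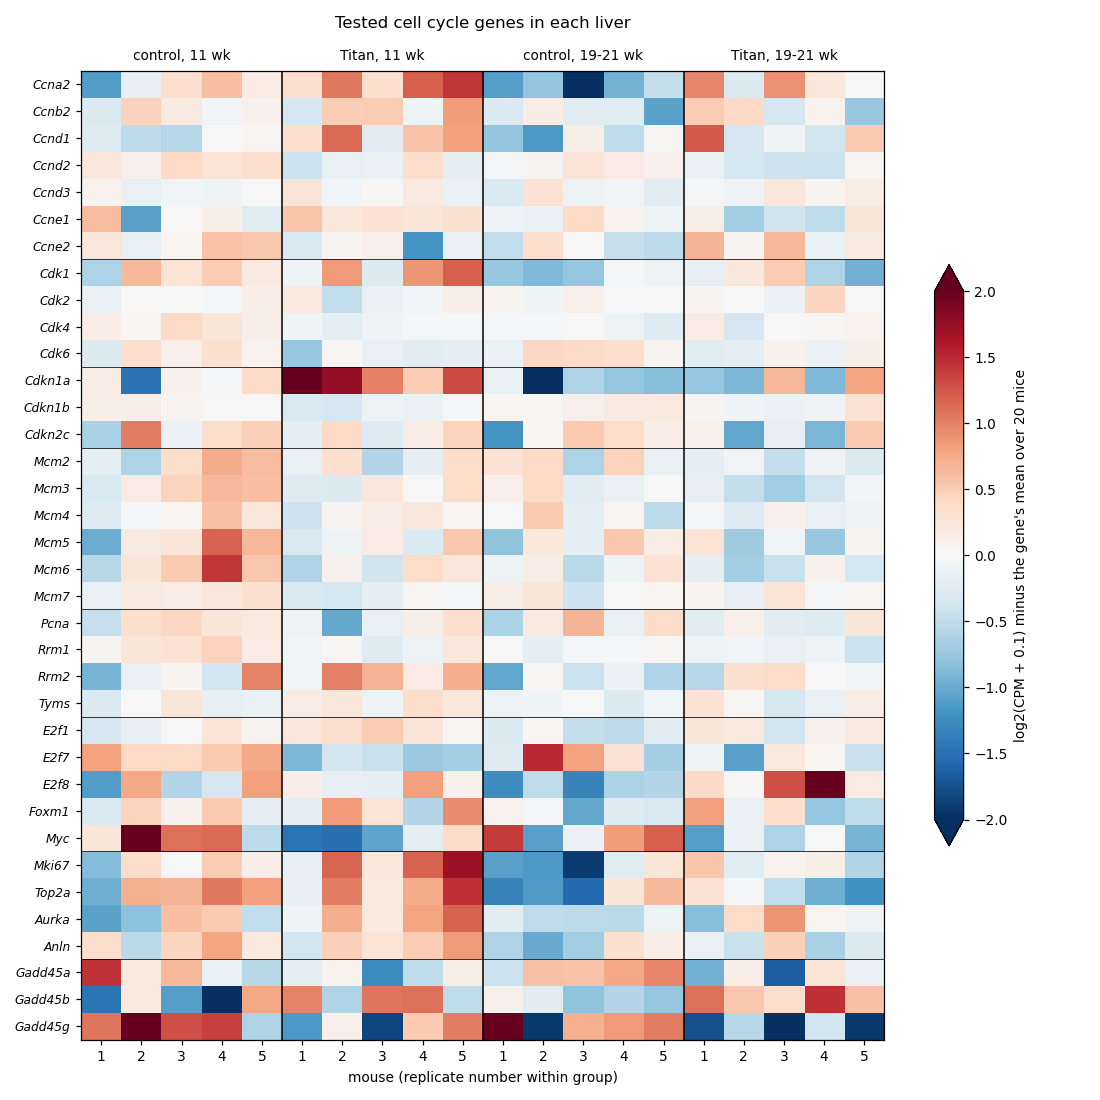
Log2(CPM + 0.1) of the 36 tested genes in each of the 20 livers, minus the gene's mean over all livers (colour, cut at -2 and 2). Columns are the 5 mice of each group and rows are grouped by role. Titan replicate 5 of 11 weeks is high in most mitosis genes, and Myc and Gadd45g are high in the same control mice.

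Within groups, the same mice were often the highest or the lowest for genes of late S phase and mitosis. For 14 of them (Ccna2, Ccnb1, Ccnb2, Cdk1, Mki67, Top2a, Birc5, Bub1, Aurka, Aurkb, Plk1, Anln, Foxm1 and Rrm2), grouped after their values were seen, Titan replicate 5 was the highest of the 11-week Titan mice in 11 and Titan replicate 1 the lowest in 9. Among 11-week controls, replicate 1 was the lowest in 10. Their summed CPM was 13.2 to 38.1 in 11-week Titan mice (median 25.2) and 9.62 to 21.6 in 11-week controls (median 17.7). Mki67 alone had a mean of 7.87 CPM in these Titan mice and 4.21 in these controls, where the mean sums were 24.6 and 17.1. In the older mice the sum was 10.03 to 18.5 in Titan mice (median 14.8) and 6.91 to 15.6 in controls (median 9.48). The groups overlapped at both ages. Titan replicate 5 also had the most reads on genes of all mice, 23295028, and the part of depth in its high values was not tested. Myc and Gadd45g put the 5 mice of each control group in the same order, with replicate 2 highest and 5 lowest at 11 weeks and replicate 1 highest and 2 lowest at 19–21 weeks, and in 11-week Titan mice replicates 5 and 4 were the highest in both.

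Other genes of the cycle and of liver growth, 160 in 9 lists, were called in both directions. Of the 138 tested, 7 were higher and 11 lower at 11 weeks, 6 were higher and 6 lower at 19–21 weeks and 14 were higher and 22 lower over both ages. Of all tested genes, 7.23% were higher and 7.69% lower at 11 weeks, 4.24% and 4.88% at 19–21 weeks and 11.5% and 12.5% over both ages, so the 13%, 8.7% and 26.1% of the 138 that were called in the 3 comparisons lay close to the share of all genes. These backgrounds also stand for the single lists that follow. Whether the calls in these lists depend on single mice or on the settings was not examined. In the list of RB, E2F and DREAM genes, 1 was higher and 4 were lower over both ages of 15 tested. Rbl2, which encodes the pocket protein p130 that holds resting cells out of the cycle, was lower at both ages, at 54.5 ± 3.89 (SD, n = 5) CPM in controls and 44.2 ± 1.92 in Titan mice at 11 weeks (-0.30 ± 0.07, adjusted p = 0.00539) and at 59.5 ± 3.51 and 47.4 ± 4.62 at 19–21 weeks (-0.33 ± 0.07, adjusted p = 0.00556). E2f6, a repressive E2F, had -0.28 ± 0.06 over both ages (adjusted p = 0.00145), and E2f2, an activator like E2F1, -1.13 ± 0.26 (adjusted p = 0.00318).

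Of 37 tested genes of origin licensing and the replication fork, 2 were higher and 6 lower over both ages. Rfc1, which loads PCNA, fell by 0.24 on the log2 scale (adjusted p = 0.000552). Cdc6, which loads the MCM helicase on origins, was higher by 1.30 ± 0.27 over both ages (adjusted p = 0.00111). It was at 0.322 ± 0.122 CPM in controls and 0.574 ± 0.350 in Titan mice of 11 weeks, which did not pass (0.75 ± 0.37, adjusted p = 0.187), and at 0.270 ± 0.0542 and 0.978 ± 0.330 at 19–21 weeks (1.86 ± 0.38, adjusted p = 0.00384). Of 11 tested regulators of CDKs, 2 were higher and 2 lower over both ages. Wee1, the kinase that blocks CDK1, had 0.64 ± 0.16 (adjusted p = 0.00531), the phosphatase Cdc25a, which frees CDK2, 0.32 ± 0.10 (adjusted p = 0.0186), and Mnat1, a part of the CDK-activating kinase, -0.34 ± 0.10 (adjusted p = 0.0134). Of 10 tested spindle and checkpoint genes, securin (Pttg1) was higher (0.64 ± 0.15, adjusted p = 0.00453) and Bub3 lower (-0.21 ± 0.06, adjusted p = 0.0200). Of 10 tested genes of cytokinesis and ploidy, Kif23, a motor of the central spindle, was higher (0.73 ± 0.24, adjusted p = 0.0336).

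Among 16 tested p53 and DNA damage genes, 1 was higher and 2 were lower over both ages. Sesn2, a stress-induced brake of mTORC1, rose (0.70 ± 0.14, adjusted p = 0.000874), while Plk2 and Sesn1 fell (-0.79 ± 0.19 and -0.21 ± 0.07, adjusted p = 0.00398 and 0.0463). Of 13 tested mitogens and growth brakes of liver, 2 were higher and 3 lower. Met, the receptor of hepatocyte growth factor, fell (-0.32 ± 0.07, adjusted p = 0.00136) and Btg2 and Tgfbr1, a growth arrest gene and a receptor of TGF-beta, rose (0.56 ± 0.14 and 0.19 ± 0.06, adjusted p = 0.00727 and 0.0228). In the growth hormone and IGF axis, 1 of 13 tested genes was higher and 3 were lower over both ages. Igfbp2, a carrier of IGF1 in plasma, had the largest size of any gene of the 9 lists at 11 weeks, with 178 ± 85.3 CPM in controls and 26.1 ± 14.8 in Titan mice (-2.78 ± 0.53, adjusted p = 0.000960). At 19–21 weeks it was at 137 ± 57.8 CPM in controls and 96.96 ± 77.0 in Titan mice (-0.51 ± 0.49, adjusted p = 0.563). The average over both ages was -1.65 ± 0.36 (adjusted p = 0.00190), and the change of the line difference with age did not pass (2.27 ± 0.70, adjusted p = 0.290). The growth hormone receptor gene Ghr and Irs2 were lower over both ages (-0.23 ± 0.06 and -0.67 ± 0.21, adjusted p = 0.00782 and 0.0223). Of 13 tested genes of the MYC network and the immediate early response, 3 were higher and 1 lower over both ages. They include Atf3 with 1.502 ± 0.28, Mxd4, an antagonist of MYC, with 0.18 ± 0.05 and Mycn with 0.98 ± 0.29 (adjusted p = 0.000521, 0.0176 and 0.0197). Between the ages, none of the 138 passed in controls and 2 were lower in older Titan mice, the spindle checkpoint gene Mad2l1 (-0.93 ± 0.18, adjusted p = 0.0123) and the growth arrest gene Btg1 (-0.67 ± 0.16, adjusted p = 0.0376).

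The markers of other cell types were set beside these results because cycling cells in liver need not be hepatocytes. Every marker had reads in at least 1 mouse of each group. Over both ages 11.5% of all tested genes were higher and 12.5% lower, and at 11 weeks 7.69% were lower. Of 6 endothelial markers, 4 were lower over both ages, and their sum was 239 to 288 CPM in Titan mice and 289 to 332 CPM in controls at 11 weeks, without overlap, and 242 to 300 CPM and 289 to 311 CPM at 19–21 weeks, with overlap. Of 6 stellate cell markers 2 were higher over both ages, with sums of 269 to 415 CPM in Titan mice and 287 to 336 CPM in controls at 11 weeks. Of 8 leukocyte markers 2 could be tested and 1 of these was higher at both ages, while the sums overlapped at 14.1 to 23.6 CPM in Titan mice and 14.1 to 17.1 CPM in controls at 11 weeks and at 14.8 to 33.8 CPM and 11.3 to 27.0 CPM at 19–21 weeks. None of 6 Kupffer cell and none of 4 tested cholangiocyte markers passed in a line comparison, 2 of 5 tested erythroid markers were higher over both ages, and of 8 hepatocyte markers 3 were lower at 11 weeks and 2 over both ages. The part of any of these cells in the levels of the cell cycle genes was not tested.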

How the data were processed

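Liver RNA of 20 mice was sequenced after ribosomal RNA depletion with a strand-marking kit. The authors aligned reads with STAR 2.5.3a to GRCm38 and deposited read counts per gene. The sense-strand column was used here (96.8% to 97.5% of strand-assigned reads). Of all counted reads, 41.7% to 56.6% fell on genes. IDs were named from GENCODE M21 (55480 of 55573 matched), and 1560 Y-linked and 111 histone genes were not analysed. Counts of the 4 groups entered 1 fit in edgeR 4.0.16 (R 4.3.3) with TMM scaling, filterByExpr and the quasi-likelihood F test, adjusted by Benjamini–Hochberg over 13783 genes. The SE is the log2 fold change over the root of F. The fit was tested on simulated data. Alternatives were DESeq2 1.42.0, RLE scaling, counts over both strands, other filters, only the groups compared, Y-linked and histone genes kept, the percent of reads on genes as a covariate, the replicate number as a block, and each mouse left out. The members and gene lists were chosen with earlier results of these data known, so none is independent of them. All members are named, those past the threshold in full, with at most 3 genes of each other list by smallest p. A gene that this rule would name is not reported here. Promoter windows are RefSeq's for GRCm38.p6, and coordinates are those of GRCm38.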

Additional observations from a re-analysis of the deposited data

Results flagged for a closer look

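In 4 of 144 groups checked, each 5 mice for 1 tested gene, 1 mouse lay far from the others, judged by its gap to the nearest mouse over the range of the group, and chance gives about 1 in 20. Ccne1 was at 1.516 CPM in Titan replicate 1 of 11 weeks, and the nearest mouse was at 1.261. Cdk2 was at 16.02 CPM in Titan replicate 4 of 19–21 weeks, with the nearest at 12.37. Rrm1 was at 9.093 CPM in Titan replicate 5 of 19–21 weeks, with the nearest at 11.06. E2f8 was at 17.08 CPM in Titan replicate 4 of 11 weeks, with the nearest at 10.61. None of these 4 genes passed the test in the comparison at the age of that mouse.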

How the results depend on the processing

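No direction of a called member turned under any alternative. At 11 weeks, against 1 member higher and 4 lower, 2 were higher with DESeq2, with no filter on low counts and with only the groups compared, and 2 were lower with no filter and with at least 10 counts in every mouse. At 19–21 weeks, against 2 higher and 1 lower, 0 were higher with counts over both strands, 1 was higher with at least 10 counts in every mouse and with only the groups compared, 2 were lower with DESeq2, and 0 were lower with the percent of reads on genes as a covariate. Between the ages in Titan mice, against 0, 1 was lower with DESeq2 and with no filter. The cause was not tested. With each mouse left out, the counts ran from 1 to 3 higher and 1 to 7 lower at 11 weeks, from 1 to 2 higher and 0 to 2 lower at 19–21 weeks, from 5 to 8 higher and 5 to 9 lower over both ages, from 0 to 1 lower between the ages in Titan mice, and were 0 in the other comparisons.

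The replicate number in the titles was also tried as a replicate block, under which 0 members were lower at 19–21 weeks, 5 were lower at 11 weeks and 7 were lower over both ages. Mice that share a number did not deviate together, with correlations of -0.144 to 0.175 (4 of 30 pairs over 0.1), against -0.178 to 0.190 for other pairs (13 of 120), so the numbers were not taken as pairs. The low-count genes limit the rest, since 5 of the 41 members could not be tested.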
